A study of Rattus norvegicus with 16 samples.

Results

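The genes described here are those of fatty acid oxidation with its regulators in the rat kidney. They were taken from a list of 42 gene symbols that covers the transcriptional regulators, the enzymes that activate fatty acids, the carnitine shuttle, the mitochondrial and peroxisomal beta-oxidation steps and a pair of genes that PPARα switches on outside those steps. Of the 42 symbols, 40 had a row among the 35849 genes of the expression table. Eci2 and Decr2 had no row under these names, and a row named Eci3 carried in its annotation the protein that is also known as Eci2. Of the 40 genes with a row, 38 had enough counts for a test in every comparison. Abcd2 and Acsl6 did not, except that Acsl6 could be tested at the lower dose of SIN against DN.

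Renal RNA was sequenced from 16 male Sprague Dawley rats, 4 in each of 4 groups, which were 6 to 8 weeks old when the study began. Rats of the normal group had a normal diet and were injected with citrate buffer. Rats of the DN (diabetic nephropathy) group were injected with streptozotocin (STZ, a toxin of the insulin-producing beta cells) at 45 mg/kg, were kept only if blood glucose was above 16.7 mmol/l a week later, and ate food high in glucose and fat. The remaining groups had the same STZ injection, selection and diet, and were also given sinomenine (SIN), an alkaloid of Chinese herbal medicine, each day for 8 weeks. They are called SIN (20 mg/kg) or SIN (40 mg/kg) by the daily dose. STZ, the diet and diabetes itself differed together between the normal group and the other 3 groups and cannot be told apart here. Totals were between 19616312 and 25217030 estimated counts per rat. The libraries of a group have consecutive serial numbers, so an effect of library preparation and one of the group cannot be told apart. Levels are given in CPM, which divides counts by the library total corrected for composition (TMM), and values of the 4 rats of a group follow the replicate numbers 1 to 4.

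Fatty acids are the main fuel of the proximal tubule, the kidney segment that reabsorbs most of the filtered solutes. A fatty acid is joined to coenzyme A, carried into the mitochondrion as a carnitine ester and shortened there in repeated cycles of dehydrogenation, hydration, a further dehydrogenation and thiolysis, while very long and branched chains are shortened first in peroxisomes. PPARα, a nuclear receptor that fatty acids bind, raises the transcription of many of these genes together with its coactivator PGC-1α, and the liver and to a lesser degree the kidney turn the acetyl-CoA produced into ketone bodies.

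In the normal kidney the transcripts of the mitochondrial cycle were the most abundant of the list. On the scale of CPM per kilobase of transcript, which allows levels of different genes to be set side by side, the highest mean belonged to Eci1 at 443 ± 65.3 (SD, n = 4 rats, as in all group means below). It was followed by Acaa2 at 385 ± 73.4, Acadm at 345 ± 37.0, Hadhb at 262 ± 15.6 and Hadh at 253 ± 19.7. These encode an enoyl-CoA isomerase, the mitochondrial thiolase, medium-chain acyl-CoA dehydrogenase, the β subunit of the trifunctional protein and a hydroxyacyl-CoA dehydrogenase. The first 2 differed by less than their SDs. In all, 16 genes were above 100 CPM per kilobase, and Abcd2 and Acsl6 were below 1. Mean CPM of Abcd2, a transporter of very long-chain acyl-CoA in the peroxisomal membrane, was 0.349 in the normal, 0.209 in the DN, 0.534 in the SIN (20 mg/kg) and 0.298 in the SIN (40 mg/kg) group. Acsl6, a long-chain acyl-CoA synthetase best known from brain, had CPM of 2.43, 0.961, 0.224 and 0.0952 in the DN rats. Normal rats 1 and 3 had no count of Acsl6, which allows up to 0.14 and 0.132 CPM (3 counts), and the other normal rats had 0.581 and 0.267 CPM. DN rats 3 and 4 were thus within the normal range of Acsl6 and DN rats 1 and 2 above it.

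The first comparison asked how fatty acid oxidation genes differed between diabetic and normal kidneys. Transcripts of Angptl4, Pdk4 and Abcd3 were 3.35-fold, 2.55-fold and 1.9-fold lower in the DN group, and those of Acsl3, Eci1, Acadm, Acaa2, Acsl1 and Etfdh were lower by smaller factors. Acaa1a, Echs1 and Acad11 were higher. Thus 12 of the 38 tested genes (31.6%) passed an adjusted p under 0.05 in edgeR's quasi-likelihood test, against 19.5% of all 15775 genes tested. Of the 12, 9 were lower (23.7% of the 38, against 10.8% of all genes) and 3 were higher (7.89%, against 8.74% of all genes). A difference of at least 2-fold was reached by Angptl4 and Pdk4 only, against 3.8% of all genes. The median log2 fold change was −0.20 over the 38 genes and 0.00 over all genes tested, and 28 of the 38 had a negative value. In 10 of the 38 (26.3%) the 4 DN rats lay wholly on one side of the 4 normal rats, against 24.3% of all genes.

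**Figure D1:**
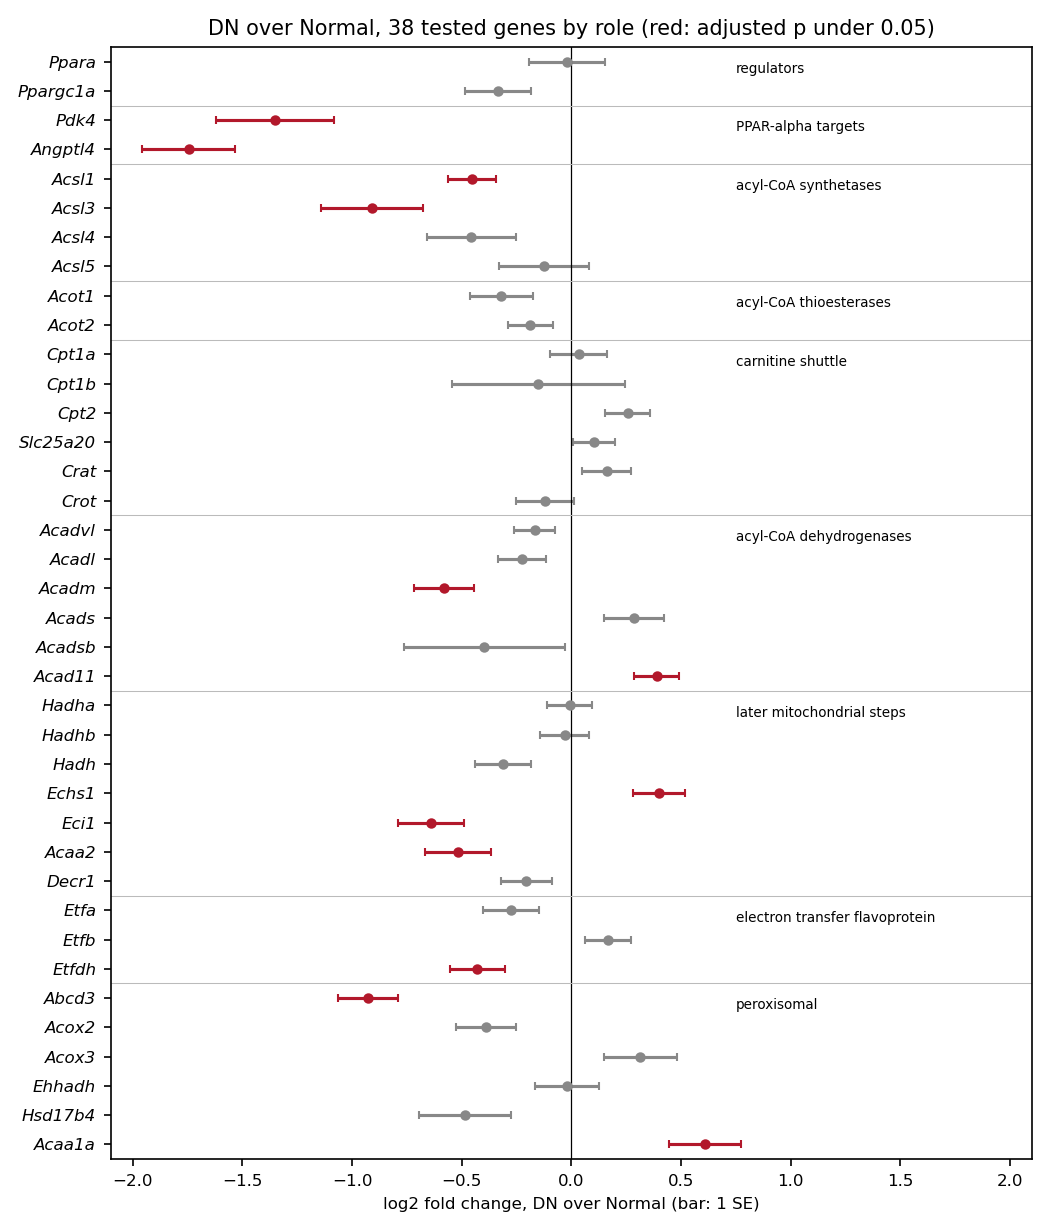
Log2 fold change (x axis) of the 38 tested genes in the DN over the normal group, grouped by role (y axis). Points are fitted values, bars are 1 SE, and red marks an adjusted p under 0.05. Pdk4 and Angptl4 stand farthest to the left at −1.35 and −1.75, while all 6 genes of the carnitine shuttle lie between −0.15 and 0.26.

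The regulators themselves were not called. Ppara, which encodes PPARα, had 88.7, 71.4, 53.1 and 73.0 CPM in the normal rats and 55.7, 72.3, 87.9 and 65.4 CPM in the DN rats, a log2 fold change of −0.02 ± 0.17 (SE). The ranges of the groups overlapped almost fully. Ppargc1a, which encodes PGC-1α, had 46.0, 47.5, 73.0 and 65.3 CPM in the normal rats against 43.9, 49.3, 44.8 and 45.5 CPM in the DN rats (log2 fold change −0.33 ± 0.15 SE, adjusted p = 0.135 by edgeR). The DN rats were close to each other and to the lower pair of normal rats.

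The largest decreases belonged to the PPARα targets outside the oxidation steps. Angptl4, a secreted inhibitor of lipoprotein lipase, had 18.9, 21.7, 19.6 and 19.6 CPM in the normal rats and 6.33, 8.65, 4.56 and 4.24 CPM in the DN rats. Every DN rat was below every normal rat, and the log2 fold change was −1.75 ± 0.21 (SE, adjusted p = 0.00324 by edgeR). Pdk4, the kinase that shuts pyruvate dehydrogenase when fat is burnt, had 29.1, 18.5, 25.4 and 23.8 CPM in the normal rats and 11.7, 12.7, 8.63 and 4.86 CPM in the DN rats. Again the groups did not overlap (log2 fold change −1.35 ± 0.27 SE, adjusted p = 0.0135 by edgeR). The plot of CPM by rat shows both genes in all 4 groups.

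**Figure D2:**
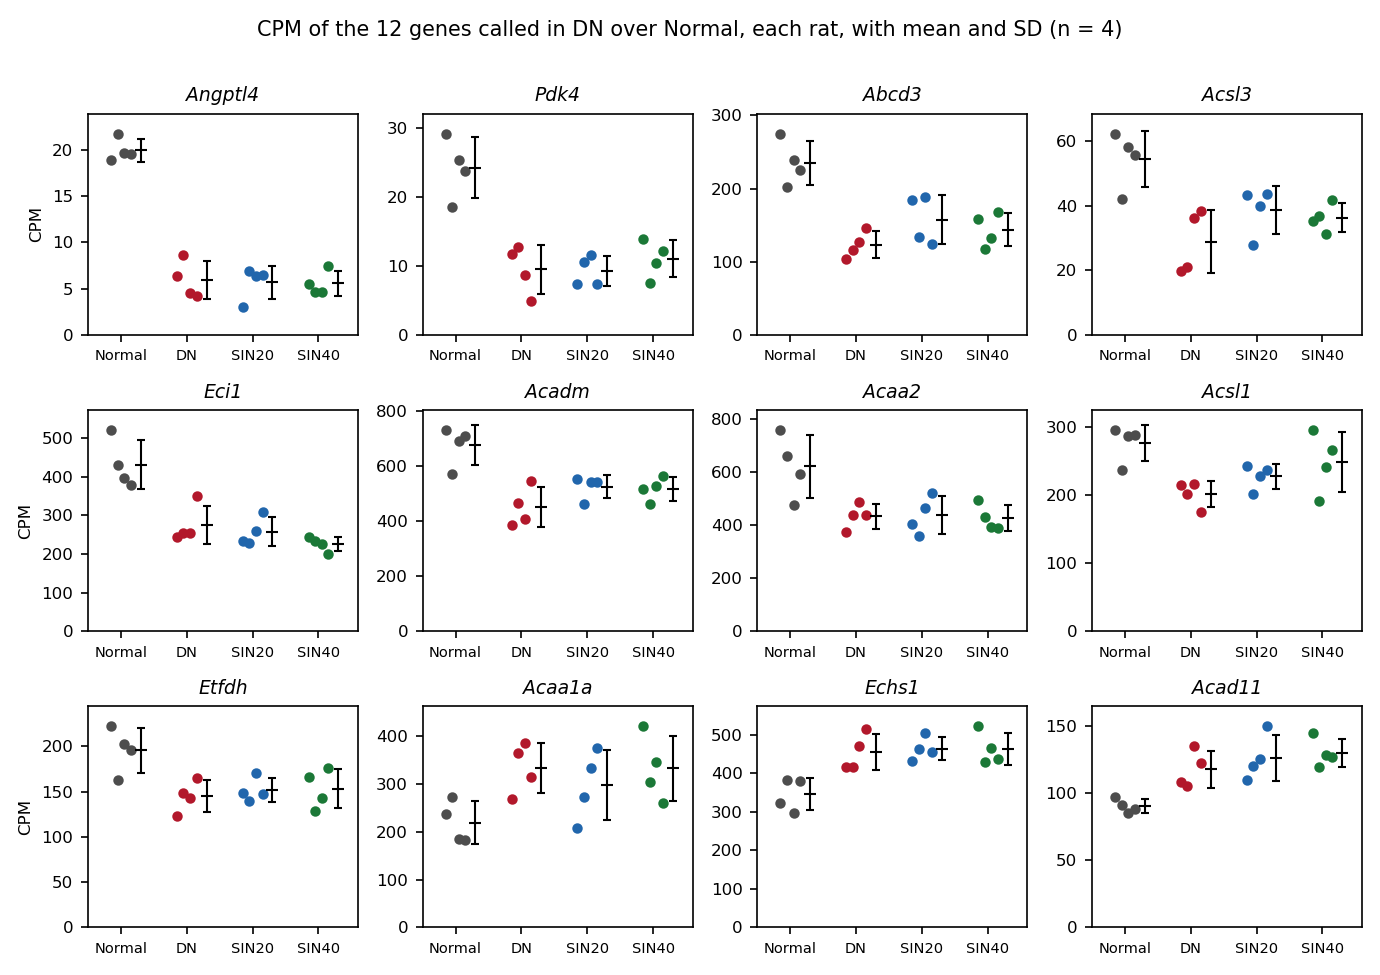
CPM (y axis, from 0) in the 4 groups (x axis) for the 12 genes called in the DN over the normal group. Each point is a rat, the horizontal mark and bar are the mean and SD of 4 rats. Angptl4 is between 18.9 and 21.7 CPM in normal rats and at most 8.65 CPM in any other rat.

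The stretches before the RefSeq starts of Angptl4, Pdk4 and Abcd3 are shown because these 3 genes were called lower in the DN group under each of 16 alternative analyses at the same threshold. Each stretch is 250 bases of the assembly GRCr8, written 5′ to 3′ on the strand of the gene, and capitals mark the TATA-box letters TATAAA. The expression table was made on the earlier build Rnor_6.0, so no position is carried from one to the other.
Angptl4, chr7:15258682-15258931, minus strand: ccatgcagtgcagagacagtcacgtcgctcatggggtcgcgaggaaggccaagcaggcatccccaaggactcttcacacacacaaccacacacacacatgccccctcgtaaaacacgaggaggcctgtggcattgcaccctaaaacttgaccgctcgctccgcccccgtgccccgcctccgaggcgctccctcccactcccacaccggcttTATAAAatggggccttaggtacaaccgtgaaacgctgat
Pdk4, chr4:34568330-34568579, minus strand: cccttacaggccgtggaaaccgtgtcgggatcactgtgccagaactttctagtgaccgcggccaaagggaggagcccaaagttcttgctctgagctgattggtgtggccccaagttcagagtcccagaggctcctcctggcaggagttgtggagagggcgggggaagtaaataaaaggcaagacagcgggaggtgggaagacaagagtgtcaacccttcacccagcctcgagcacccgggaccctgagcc
Abcd3, chr2:212590380-212590629, minus strand: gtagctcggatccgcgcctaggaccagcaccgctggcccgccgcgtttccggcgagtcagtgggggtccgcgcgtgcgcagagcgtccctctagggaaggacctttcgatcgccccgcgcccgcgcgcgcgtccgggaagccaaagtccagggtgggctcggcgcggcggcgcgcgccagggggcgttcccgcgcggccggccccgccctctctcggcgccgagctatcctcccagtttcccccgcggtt
TATAAA, searched on both strands, lay in the window of Angptl4 and in 4 of the 38 windows found by symbol (10.5%), against 12.9% of 33469 windows of all RefSeq promoters. These 38 windows are not those of the 38 tested genes. Cpt1b, Acadl, Acaa2 and Decr1 had no window under their symbols, while Eci2, Decr2, Abcd2 and Acsl6 had one. The share of G and C was 60.0% for Angptl4, 59.2% for Pdk4 and 75.6% for Abcd3, and its median was 59.6% over the 38 windows and 51.2% over all windows. PPARα with its partner RXR binds a direct repeat of AGGTCA with 1 base between the copies. This repeat, on both strands of the windows from 250 bases before to 50 bases after the start, was in 0 of the 38 windows and in 18 of 33469 (0.0538%). A single AGGTCA lay before the start in 6 of the 38 (15.8%) and in 14.1% of all. With 1 mismatch allowed in the repeat, 1 of the 38 (2.63%) held it against 147 of 33469 (0.439%). That was Acadvl, which encodes very long-chain acyl-CoA dehydrogenase, where the match in capitals begins 17 bases before the start.
Acadvl, chr10:55236706-55236955, minus strand: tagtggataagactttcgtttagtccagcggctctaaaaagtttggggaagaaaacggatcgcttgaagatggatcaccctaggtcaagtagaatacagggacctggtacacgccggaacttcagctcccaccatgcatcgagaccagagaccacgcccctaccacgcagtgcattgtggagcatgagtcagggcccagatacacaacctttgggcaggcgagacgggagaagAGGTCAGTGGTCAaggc
A window without a match says only that these letters are not in it. Acadvl was not called (log2 fold change −0.17 ± 0.09 SE, adjusted p = 0.218 by edgeR).

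Of the 5 acyl-CoA synthetases, which join a long-chain fatty acid to coenzyme A, 4 were tested and 2 were called, both lower. Acsl3, found on the endoplasmic reticulum and lipid droplets, had 62.2, 42.1, 58.0 and 55.7 CPM in the normal rats and 19.7, 21.1, 36.3 and 38.5 CPM in the DN rats. The DN rats formed a lower and a higher pair, and the log2 fold change was −0.91 ± 0.23 (SE, adjusted p = 0.0275 by edgeR). Acsl1, the isoform tied to oxidation in many tissues, had 295, 236, 286 and 288 CPM in the normal rats and 214, 201, 216 and 174 CPM in the DN rats (log2 fold change −0.45 ± 0.11 SE, adjusted p = 0.0233 by edgeR). In neither gene did the groups overlap. Acsl4 was at −0.46 ± 0.20 (SE, adjusted p = 0.132 by edgeR) and Acsl5 at −0.13 ± 0.21 (adjusted p = 0.687). The thioesterases Acot1 and Acot2, which free the fatty acid again in the cytosol and the mitochondrion, were not called, at −0.32 ± 0.14 and −0.19 ± 0.10.

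None of the 6 genes of the carnitine shuttle was called in the DN over the normal group, and their log2 fold changes ran from −0.15 to 0.26. Cpt1a, the liver-type carnitine palmitoyltransferase that sets the rate of entry, had 318, 379, 308 and 338 CPM in the normal rats and 352, 361, 391 and 266 CPM in the DN rats. The groups overlapped, with a log2 fold change of 0.03 ± 0.13 (SE). Cpt1b, the muscle-type isoform, ranged from 33.9 to 84.1 CPM in the normal and from 25 to 101 CPM in the DN rats. Its SE of 0.40 was the largest among the 38 genes. Cpt2, which rebuilds the acyl-CoA inside the mitochondrion, was at 0.26 ± 0.10 (SE, adjusted p = 0.0981 by edgeR). Slc25a20, the carrier across the inner membrane, Crat, which handles acetyl groups, and Crot, the peroxisomal octanoyltransferase, were at 0.10 ± 0.10, 0.16 ± 0.11 and −0.12 ± 0.13.

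The 6 acyl-CoA dehydrogenases, which catalyse the first step of the cycle, did not move together. Acadm had 729, 569, 691 and 708 CPM in the normal rats and 384, 463, 406 and 545 CPM in the DN rats. The highest DN rat was just below the lowest normal rat, and the log2 fold change was −0.58 ± 0.14 (SE, adjusted p = 0.0217 by edgeR). Acad11, a dehydrogenase of long and very long chains, was higher instead, with 96.9, 90.6, 84.8 and 88.0 CPM in the normal rats and 108, 105, 135 and 122 CPM in the DN rats (log2 fold change 0.39 ± 0.10 SE, adjusted p = 0.0298 by edgeR). All 4 DN rats were above all 4 normal rats. Acadl (long chains), Acads (short chains) and Acadsb (short branched chains) had log2 fold changes of −0.22 ± 0.11, 0.28 ± 0.14 and −0.40 ± 0.37 and were not called. The wide error of Acadsb went with normal rat 3, at 153 CPM against 55.8 to 65.5 CPM in the other normal rats.

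Among the later mitochondrial steps 2 genes were lower, 1 was higher and 4 were not called. Eci1, which moves double bonds of unsaturated chains into place, had 521, 430, 395 and 378 CPM in the normal rats and 244, 254, 255 and 349 CPM in the DN rats. The groups did not overlap, although DN rat 4 came near the normal range (log2 fold change −0.64 ± 0.15 SE, adjusted p = 0.0214 by edgeR). Acaa2, the thiolase, had 757, 660, 475 and 594 CPM in the normal rats and 372, 437, 487 and 436 CPM in the DN rats, with DN rat 3 above normal rat 3 (log2 fold change −0.52 ± 0.15 SE, adjusted p = 0.0401 by edgeR). Echs1, the short-chain enoyl-CoA hydratase, was higher, with 324, 381, 297 and 381 CPM in the normal rats and 417, 416, 470 and 514 CPM in the DN rats (log2 fold change 0.40 ± 0.12 SE, adjusted p = 0.0443 by edgeR). Here too every DN rat was outside the normal range. Counts of Echs1 were not whole in 15 of the 16 rats, since reads were shared with other genes, so its level is less certain. Its call was lost in 9 of 16 alternatives. Hadh was at −0.31 ± 0.13 and Decr1, a dienoyl-CoA reductase for unsaturated chains, at −0.21 ± 0.12.

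Hadha and Hadhb encode the α and β subunits of the mitochondrial trifunctional protein, and their values ran side by side. Hadha had a mean of 564 ± 48 CPM in the normal and 559 ± 44 CPM in the DN rats, and Hadhb 435 ± 26 and 424 ± 52 CPM. Their log2 fold changes were −0.01 ± 0.10 and −0.03 ± 0.11 (SE), and neither was called. In RefSeq these genes start 301 bases apart and are read away from each other, so that the 250 bases before the start of each share 200 bases. The whole stretch between the starts, which holds 57.0% G and C, is printed on the plus strand of GRCr8, with Hadhb read leftward from its left end and Hadha rightward from its right end. Neither AGGTCA nor TATAAA is in it.
Hadhb-Hadha, chr6:31907501-31907800: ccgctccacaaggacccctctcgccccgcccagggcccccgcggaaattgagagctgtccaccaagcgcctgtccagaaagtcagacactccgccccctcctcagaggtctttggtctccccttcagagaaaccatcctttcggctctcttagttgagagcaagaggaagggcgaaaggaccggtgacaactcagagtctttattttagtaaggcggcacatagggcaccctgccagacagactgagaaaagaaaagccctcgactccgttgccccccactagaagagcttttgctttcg

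Electrons of the first step pass through the electron transfer flavoprotein, made of Etfa and Etfb, to its dehydrogenase Etfdh. Etfdh was lower, with 222, 163, 202 and 196 CPM in the normal rats and 123, 149, 143 and 166 CPM in the DN rats (log2 fold change −0.43 ± 0.13 SE, adjusted p = 0.0412 by edgeR). Normal rat 2 fell below DN rat 4. Etfa and Etfb were at −0.27 ± 0.13 and 0.17 ± 0.11 and were not called.

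Of the 9 peroxisomal genes 6 were tested, with 1 lower and 1 higher. Abcd3, the transporter that brings acyl-CoA through the peroxisomal membrane, had 275, 202, 238 and 226 CPM in the normal rats and 104, 117, 127 and 147 CPM in the DN rats. The groups were far apart, with a log2 fold change of −0.93 ± 0.14 (SE, adjusted p = 0.00498 by edgeR). Acaa1a, a peroxisomal thiolase, had 238, 274, 184 and 182 CPM in the normal rats and 270, 365, 386 and 315 CPM in the DN rats (log2 fold change 0.61 ± 0.16 SE, adjusted p = 0.0312 by edgeR). Only DN rat 1 lay within the normal range. Reads of Acaa1a were split with other genes by the counting, so its level is less certain. Of the other peroxisomal genes, Hsd17b4, the bifunctional enzyme of branched and very long chains, was at −0.49 ± 0.21 (SE, adjusted p = 0.122 by edgeR). Ehhadh, the bifunctional enzyme of straight chains, was at −0.02 ± 0.15, and the acyl-CoA oxidases Acox2 and Acox3 were at −0.39 ± 0.14 and 0.32 ± 0.17.

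The count of 12 depended on single libraries. It was 4 without normal rat 1, normal rat 4 or DN rat 2, 5 without normal rat 3 and 6 without DN rat 1, while the share of all genes called fell to 10.2%, 4.81%, 8.17%, 6.19% and 10% in the same order. DN rat 3 had a summed level of 5 fibroblast and smooth muscle markers of 697 CPM where the other 3 had 242 to 262 CPM, and without it 8 genes were called, all lower, against 16.2% of all genes called in either direction. Over 16 alternatives the call was lost in 4 for Eci1, in 5 for Acad11, Acsl1 and Acsl3, and in 6 for Acadm and Acaa1a. It was lost in 7 for Acaa2, in 8 for Etfdh and in 9 for Echs1.

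Markers of kidney cell types, of fat and of the circadian clock were followed beside these values. Their counts are to be read beside the 8.74% of all genes called higher and 10.8% called lower in the DN over the normal group. Of 12 proximal tubule markers Slc7a13 and Kap were called lower in the DN group and 0 were higher. The 12 had a median log2 fold change of −0.17, beside −0.20 over the 38 oxidation genes. Their summed level ran from 17976 to 23444 CPM in the normal and from 14435 to 20620 CPM in the DN rats. Slc34a1 and Lrp2, defining genes of that segment, were at 1570 CPM or more in every rat. Of the 4 markers of the thick ascending limb Umod was lower, with sums of 3654 to 4840 and 2088 to 3773 CPM and a median of −0.37. The 7 adipocyte markers summed to 60.4 to 74.0 CPM in the normal and 88.0 to 129 CPM in the DN rats. Much of this was Cidec, which is also on a list of PPARα targets, while Plin1 was at 9.93 CPM in DN rat 3 and at most 1.24 CPM in DN rats 1, 2 and 4. Of 14 tested genes of the circadian clock 5 were higher, among them Dbp at 1.78 ± 0.27, and 3 were lower, among them Arntl at −1.19 ± 0.20 (log2 fold change ± SE). The 6 collecting duct markers summed to 474 to 1114 CPM in the normal and 823 to 1922 CPM in the DN rats, with a median log2 fold change of 0.45, and 0 were called, while 3 were higher at an unadjusted p under 0.05. The share of all genes at that unadjusted limit is not reported here. Of 5 fibroblast and smooth muscle markers 1 was higher and 0 were lower, with a median of 1.08. They summed to 202 to 314 CPM in the normal rats, 697 CPM in DN rat 3 and 242 to 262 CPM in DN rats 1, 2 and 4. The 4 podocyte markers had a median of −0.45, and 0 were called. The time of day at which tissue was taken is not given in the sources used here. The part of these differences in the values of the oxidation genes was not tested. In whole tissue, fewer cells of a type and less RNA per cell cannot be told apart.

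The second question was whether sinomenine changed these genes in the diabetic kidney. At 20 mg/kg 0 of 39 tested genes passed an adjusted p under 0.05 in edgeR's quasi-likelihood test, as did 0% of all 15724 genes. At an unadjusted p under 0.05 there were 6 (15.4%), against 15.4% of all genes. At 40 mg/kg 0 of 38 passed, again against 0% of all 15530 genes, and 8 (21.1%) had an unadjusted p under 0.05 against 17.1% of all. DESeq2 and edgeR's exact test also called 0 genes of the list at 20 mg/kg. At 40 mg/kg DESeq2 called Acot1 and Crat, both lower, against 2.81% of all genes, and the exact test called Acot1, against 1.04% of all. The median log2 fold change was 0.01 at 20 mg/kg and −0.01 at 40 mg/kg. Both comparisons share the DN rats, so their values are given side by side and are not independent of each other.

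**Figure D3:**
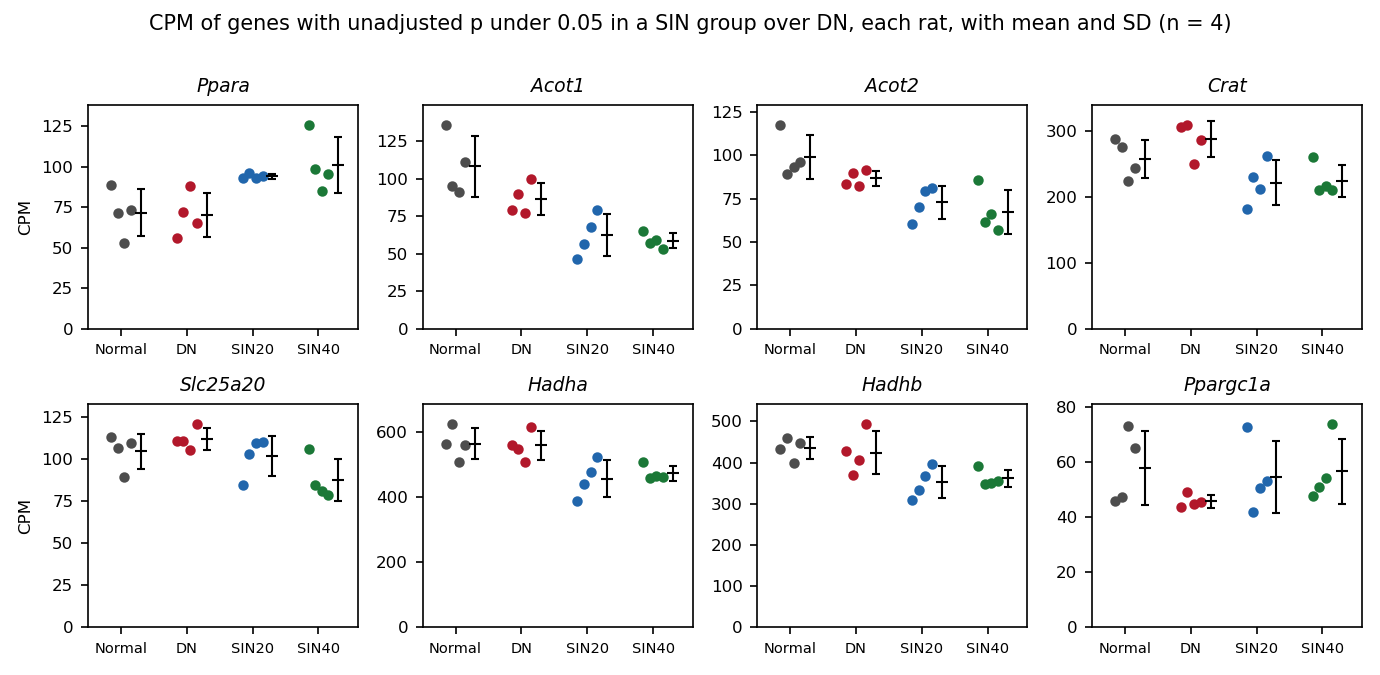
CPM (y axis, from 0) in the 4 groups (x axis) for 8 genes with an unadjusted p under 0.05 in a SIN group over the DN group, none of which passed the adjusted threshold in edgeR's quasi-likelihood test. Each point is a rat, and the mark and bar are the mean and SD of 4 rats. Ppara has means of 70.3 CPM in the DN, 94.1 CPM in the SIN (20 mg/kg) and 101 CPM in the SIN (40 mg/kg) group.

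Ppara had 93.0, 96.4, 92.9 and 94.2 CPM in the SIN (20 mg/kg) rats and 126, 98.4, 84.8 and 95.3 CPM in the SIN (40 mg/kg) rats. All rats of the lower dose were above the 55.7 to 87.9 CPM of the DN rats, and 1 rat of the higher dose was within that range. The log2 fold changes over DN were 0.41 ± 0.13 (SE, adjusted p = 0.27 by edgeR) and 0.52 ± 0.16 (adjusted p = 0.2). Reads of Ppara were partly shared with other genes. Ppargc1a was at 0.25 ± 0.15 and 0.31 ± 0.14 (SE, adjusted p = 0.427 and 0.287 by edgeR).

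At the higher dose the thioesterase Acot1 had the lowest p of the list. It had 79.1, 89.9, 77.3 and 99.7 CPM in the DN rats, 46.7, 56.7, 68.0 and 79.2 CPM at 20 mg/kg and 65.0, 57.2, 59.3 and 52.8 CPM at 40 mg/kg. At 40 mg/kg every rat was below every DN rat, and the log2 fold changes were −0.47 ± 0.16 (SE, adjusted p = 0.271 by edgeR) and −0.56 ± 0.11 (adjusted p = 0.175, and between 0.00126 and 0.392 over 16 alternatives). Acot2, whose start lies 24.4 kb from that of Acot1 on chromosome 6 of GRCr8, was at −0.26 ± 0.11 and −0.36 ± 0.12. The counting split reads of both with other genes, so their values may not be independent of each other.

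The 6 genes of the carnitine shuttle had values of both signs, from −0.38 to 0.26 at 20 mg/kg and from −0.36 to 0.15 at 40 mg/kg, and none was called. Crot was at 0.26 ± 0.13 and 0.09 ± 0.12, and Cpt1a at −0.05 ± 0.15 and 0.15 ± 0.12. Crat had 306, 309, 249 and 286 CPM in the DN rats, 182, 230, 213 and 262 CPM at 20 mg/kg and 260, 210, 216 and 210 CPM at 40 mg/kg. A single rat of each SIN group reached the DN range, and the log2 fold changes were −0.38 ± 0.13 (SE, adjusted p = 0.271 by edgeR) and −0.36 ± 0.11 (adjusted p = 0.2). Slc25a20 was at −0.14 ± 0.10 and −0.35 ± 0.11 (adjusted p = 0.493 and 0.2 by edgeR). Hadha was at −0.30 ± 0.11 and −0.24 ± 0.09, and Hadhb at −0.28 ± 0.12 and −0.23 ± 0.11. The pair that shares a start region thus had values within 1 SE of each other in both doses. Eci1 was at −0.10 ± 0.15 and −0.29 ± 0.13. In 2 genes of the list (5.13%) the rats at 20 mg/kg did not overlap the DN rats, against 8.99% of all genes, and in 3 (7.89%) at 40 mg/kg, against 10.4%.

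The genes that differed most between the DN and normal groups had the following values over DN at 20 and 40 mg/kg. Angptl4 was at −0.07 ± 0.30 and −0.09 ± 0.26, Pdk4 at −0.04 ± 0.29 and 0.22 ± 0.29, and Abcd3 at 0.35 ± 0.16 and 0.22 ± 0.14 (log2 fold change ± SE). Adjusted p by edgeR was 0.339 or higher for each. Acsl3 was at 0.41 ± 0.24 and 0.33 ± 0.22, Acsl1 at 0.17 ± 0.10 and 0.30 ± 0.14, and Acadm at 0.21 ± 0.13 and 0.20 ± 0.13. Of the genes higher in DN, Acaa1a was at −0.17 ± 0.19 and 0.00 ± 0.16, Echs1 at 0.02 ± 0.11 and 0.03 ± 0.11, and Acad11 at 0.09 ± 0.12 and 0.14 ± 0.11. None of these values passed the test, and errors of up to 0.30 leave room for changes of that size in either direction. At 20 mg/kg the 3 highest values of the list were those of Acadsb at 0.67 ± 0.31, Acsl4 at 0.43 ± 0.23 and Ppara at 0.41 ± 0.13. The 3 lowest were those of Acsl6 at −0.98 ± 0.91, Acot1 at −0.47 ± 0.16 and Cpt1b at −0.38 ± 0.35. Without DN rat 1, Acsl6 and Cpt1b changed sign, to 0.15 and 0.055.

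The same markers were followed in the rats given SIN. Clock genes over the normal group gave 9 higher and 2 lower of 15 at 20 mg/kg and 10 higher and 3 lower of 15 at 40 mg/kg. Of all genes 6.36% and 5.97% were called in these comparisons. Their summed level was 419 to 495 CPM in the normal, 478 to 691 CPM in the DN, 625 to 863 CPM in the SIN (20 mg/kg) and 816 to 899 CPM in the SIN (40 mg/kg) rats. Over DN 0 clock genes were called, with medians of 0.46 and 0.66. At an unadjusted p under 0.05, 7 of 15 were higher and 3 lower at 20 mg/kg, where 15.4% of all genes were under that limit. At 40 mg/kg 9 of 15 were higher and 3 lower, where it was 17.1% of all genes. Of 12 proximal tubule markers 2 were lower and 0 higher over the normal group at each dose, with medians of −0.13 and −0.08. Fibroblast and smooth muscle markers had medians of −1.24 and −1.05 over DN, where 0 were called and 4 and 3 were lower at an unadjusted p under 0.05. They summed to 173 to 253 CPM at 20 mg/kg and 208 to 249 CPM at 40 mg/kg. DN rat 3 had 697 CPM, and DN rats 1, 2 and 4 had 242 to 262 CPM. Collecting duct markers had medians of 0.35 and 0.54 over the normal group, with 0 and 1 called. Adipocyte markers summed to 99.6 to 160 CPM at 20 mg/kg and 64.7 to 161 CPM at 40 mg/kg. The part of these levels in the values of the oxidation genes was not tested.

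The SIN groups were also set against the normal group, with which the DN comparison shares its normal rats. At 20 mg/kg 7 of 38 genes (18.4%) were called against 6.36% of all 15877 genes, and 5 of them (13.2%) were lower, against 3.58%. At 40 mg/kg 9 of 38 (23.7%) were called against 5.97% of all 15735 genes, with 8 (21.1%) lower, against 3.69%. Angptl4 had 3.01, 6.96, 6.33 and 6.44 CPM at 20 mg/kg and 5.54, 4.69, 4.62 and 7.45 CPM at 40 mg/kg, which put it at −1.81 ± 0.23 and −1.84 ± 0.16 (SE, adjusted p = 0.00191 and 0.000391 by edgeR). No rat given SIN reached the normal range. Pdk4 was at −1.40 ± 0.19 and −1.14 ± 0.20, and Eci1 at −0.74 ± 0.14 and −0.94 ± 0.12 (adjusted p = 0.0118 and 0.00226 by edgeR). Acot1 was at −0.79 ± 0.18 and −0.89 ± 0.13, and Hsd17b4 at −0.44 ± 0.11 and −0.41 ± 0.11, both called lower at each dose. Hsd17b4 was near the threshold (adjusted p = 0.0404 and 0.0497 by edgeR). Its call was lost in 11 of 16 alternatives at each dose. Acad11 was called higher at each dose, at 0.48 ± 0.11 and 0.52 ± 0.09. At 20 mg/kg the call of Acad11 was lost in 7 of 16 alternatives and that of Acot1 in 5. Echs1 was called higher at 20 mg/kg (0.42 ± 0.11, adjusted p = 0.0459 by edgeR), a call lost in 9 of 16 alternatives. Abcd3 at −0.71 ± 0.14, Acox2, a peroxisomal acyl-CoA oxidase, at −0.68 ± 0.14 and Acsl3 at −0.59 ± 0.13 were called lower at 40 mg/kg. The call of Acsl3 was lost in 7 of 16 alternatives and that of Acox2 in 3. At 20 mg/kg the count of 7 was 3 without normal rat 4, SIN (20 mg/kg) rat 2 or SIN (20 mg/kg) rat 3, and 4 without normal rat 3 or SIN (20 mg/kg) rat 4. The share of all genes called was then 3.45%, 3.42%, 3.62%, 4.15% and 4.03% in the same order. Angptl4, Eci1 and Pdk4 were called at both doses in each of the 16 alternatives.

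**Figure D4:**
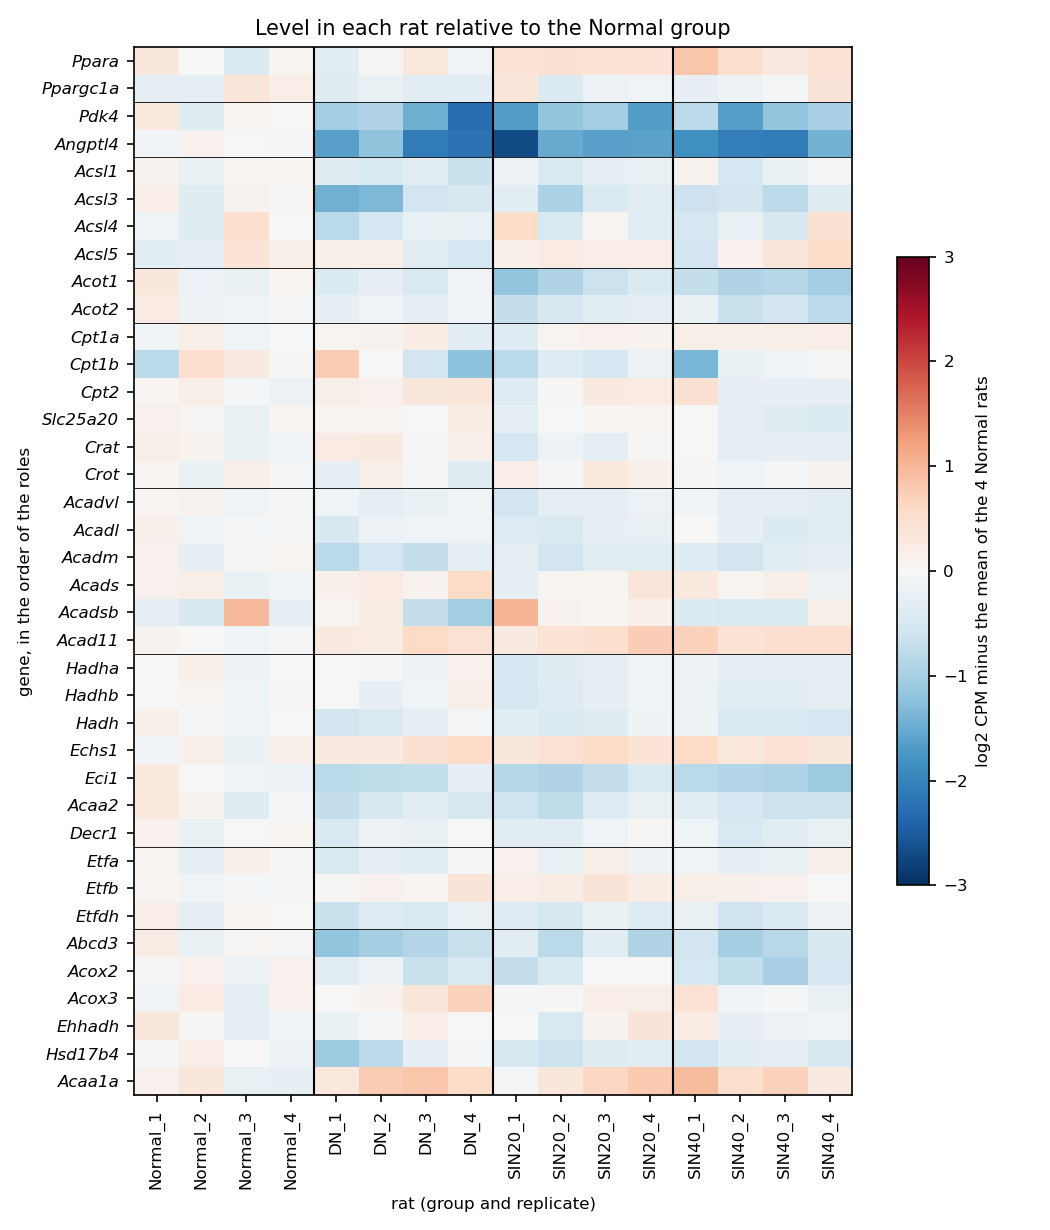
Log2 CPM of the 38 genes (y axis, in the order of their roles) in each of the 16 rats (x axis) minus the mean of the 4 normal rats, as colours from blue (lower) to red (higher). The rows of Pdk4, Angptl4 and Eci1 are blue in all 12 diabetic rats, as are several others, among them Abcd3, Acadm and Acsl3. The median over the 38 genes is between −0.08 and 0.10 in the normal rats, between −0.30 and −0.11 in the DN rats and between −0.38 and −0.12 in the rats given SIN.

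Between the doses 0 of 38 genes were called by edgeR's quasi-likelihood test, against 0.00639% of all 15657 genes (1 gene), and DESeq2 and the exact test also called 0. At an unadjusted p under 0.05 there was 1 (2.63%), Acadsb, against 4.98% of all genes. Acadsb had 159, 84.0, 80.7 and 86.5 CPM at 20 mg/kg and 58.2, 56.1, 57.8 and 87.6 CPM at 40 mg/kg, and its log2 fold change at 40 over 20 mg/kg was −0.67 ± 0.24 (SE, adjusted p = 0.961 by edgeR). SIN (40 mg/kg) rat 4 was above 3 of the SIN (20 mg/kg) rats. SIN (40 mg/kg) rat 1 was high in Cpt2, Hadha, Hadhb and Crat, and it also had Plin1, an adipocyte gene, at 13.3 CPM against at most 0.653 CPM in the other rats of its group. Its proximal tubule markers summed to 20561 CPM, against 14550 to 17141 CPM in the other rats of its group. The part of fat tissue or of proximal tubule in those values was not tested.

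Ketone body genes were followed as a list of 9 around the oxidation genes, of which 1 was higher and 3 were lower in the DN over the normal group, where 8.74% of all genes were higher and 10.8% lower. Slc16a1, the monocarboxylate transporter that carries ketone bodies and lactate, had 250, 207, 176 and 159 CPM in the normal rats and 48.0, 57.5, 67.6 and 84.4 CPM in the DN rats. Its log2 fold change of −1.61 ± 0.20 (SE, adjusted p = 0.00324 by edgeR) was close to that of Angptl4, and no DN rat came near the normal range. Slc5a8, the sodium-coupled transporter of monocarboxylates, was at −0.85 ± 0.24 and Oxct1, which starts the use of ketone bodies, at −0.46 ± 0.12 (adjusted p = 0.0385 and 0.0317 by edgeR), while Bdh2, a hydroxybutyrate dehydrogenase of the cytosol, was at 0.57 ± 0.15 (adjusted p = 0.029).

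**Figure D5:**
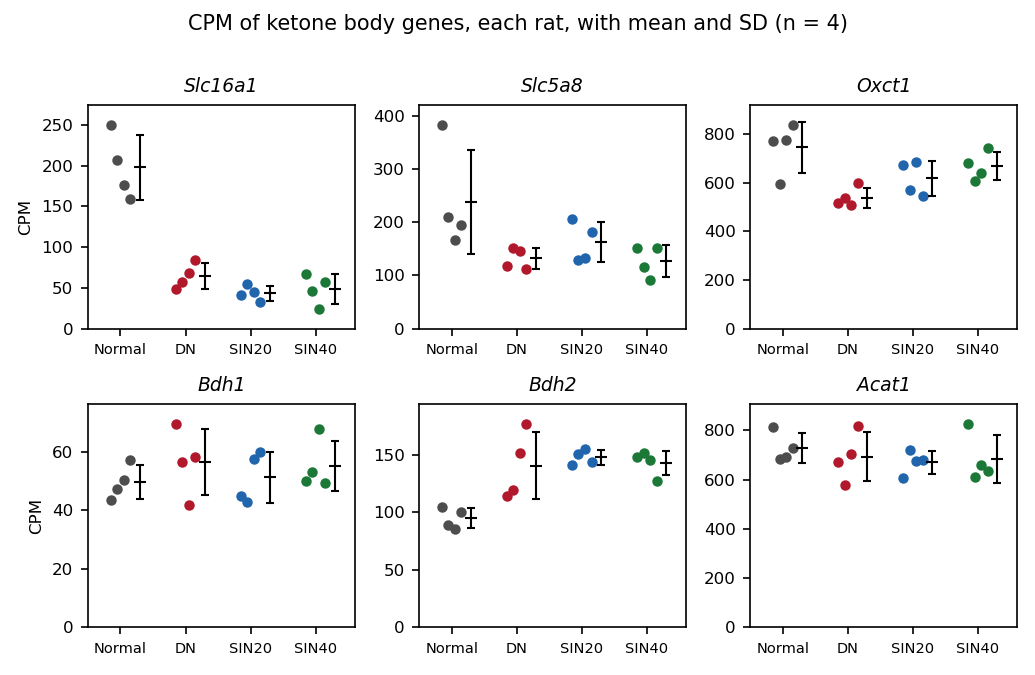
CPM (y axis, from 0) in the 4 groups (x axis) for 6 ketone body genes. Each point is a rat, and the mark and bar are the mean and SD of 4 rats. Slc16a1 is at or above 159 CPM in the normal rats and at or below 84.4 CPM in every other rat.

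Of the other genes of that list, Bdh1, the mitochondrial hydroxybutyrate dehydrogenase, was at 0.19 ± 0.15 in the DN over the normal group and was not called. Acat1, a thiolase that acts on acetoacetyl-CoA, was at −0.07 ± 0.13, and Slc16a7, another monocarboxylate transporter, was at 0.00 ± 0.26.

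The other lists around the pathway had called genes of both directions in the DN over the normal group, to be read beside the same 8.74% and 10.8% of all genes. Among 15 tested peroxisomal genes outside the 42, 2 were higher and 3 lower, with Hacl1, a lyase of α-oxidation, at −1.08 ± 0.19, Pex11a, a factor of peroxisome division, at −0.88 ± 0.17, Pecr, an enoyl-CoA reductase, at −0.76 ± 0.14 and Amacr, a racemase of branched chains, at 0.59 ± 0.13. Among 16 other mitochondrial genes 2 were higher and 0 lower (Hsd17b10 at 0.61 ± 0.10, Ivd at 0.46 ± 0.12). Carnitine and malonyl-CoA genes gave 2 higher and 0 lower of 8 (Slc25a29 at 0.72 ± 0.19, Mlycd at 0.34 ± 0.10), and genes of fatty acid uptake 1 higher and 0 lower of 8 (Fabp3, a fatty acid binding protein, at 0.75 ± 0.16). Of 14 nuclear receptors and coactivators Pparg was higher at 1.19 ± 0.24 and Ppargc1b lower at −0.48 ± 0.12. Other targets of PPARα gave 2 higher and 0 lower of 17 (Cidec at 0.75 ± 0.14, Cyp4a8 at 0.73 ± 0.13), with a median log2 fold change of −0.17 over the 17. Over the normal group these 17 targets gave 2 higher and 1 lower at 20 mg/kg (median −0.30) and 0 higher and 6 lower at 40 mg/kg (median −0.51). In these comparisons 6.36% and 5.97% of all genes were called, and 3.58% and 3.69% were called lower. In the SIN groups over DN 0 genes of these lists and of the ketone list were called by edgeR's quasi-likelihood test. At an unadjusted p under 0.05, 3 of their 86 tested genes were higher and 9 lower at 20 mg/kg, where 15.4% of all genes were under that limit. At 40 mg/kg 4 of 85 were higher and 13 lower, where it was 17.1% of all genes.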

How the data were processed

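Renal RNA of 16 rats was sequenced. Per the paper's methods and the labels, the authors enriched poly(A) RNA with oligo(dT), prepared TruSeq libraries, sequenced them on an Illumina NovaSeq, used SeqPrep and Sickle for trimming and TopHat for alignment to Rnor_6.0 with the Ensembl annotation. RSEM is named among the tools, with no role given. The authors deposited estimated counts per gene without normalization, 74.3% of whose nonzero values were whole, and these were rounded to whole counts. Genes whose counts were not whole share reads with other genes, which held for 13 of the 40 genes described. These were Ppara, Cpt1b, Acadvl, Acadl, Acadsb, Hadh, Echs1, Acaa1a, Acox3, Etfb, Etfdh, Acot1 and Acot2. A further 4 libraries that no sample record names, with their mean, were not used, and the deposited group means served only to check which column belongs to which group.

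Each comparison was fitted alone in edgeR 4.0.16 (R 4.3.3) by the quasi-likelihood test, with TMM factors and filterByExpr. Adjustment of p-values was by Benjamini-Hochberg across every gene tested. A gene was called at an adjusted p under 0.05. Tests were two-sided. The SE was derived as the absolute log2 fold change divided by the square root of the quasi-likelihood F statistic. The study's methods name edgeR for the test of differences and DESeq for the adjusted p and fold change, with a 2-fold limit. Here edgeR alone gave the main test, and DESeq2 and the 2-fold limit were alternatives. For CPM the TMM factors of all 16 rats together were used, and a prior count of 2 was added for log2 CPM. No rats of a group were duplicates of each other by a chi-square check of their counts. Alternatives were DESeq2 1.42.0, edgeR's exact test, other scaling and filters, 1 fit of all rats, a replicate block, and leaving out 1 rat at a time. The steps were tested on simulated data. Promoter windows are RefSeq's for GRCr8, matched by symbol for 38 of the 42 genes and scanned with Python 3.11.15.

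The genes and lists were chosen with earlier results of these data known. Genes named are the 42, the called genes of 7 pathway lists (up to 4 per list) and ketone genes (the values of some genes are not reported here), and markers as examples. Plin1, Slc34a1 and Lrp2 were picked after their values were seen. Columns of functional annotation were not used here beyond the identity of the row named Eci3.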

Additional observations from a re-analysis of the deposited data

Results flagged for a closer look

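Of 160 sets of 4 rats (40 genes in 4 groups), 13 held a rat that stood apart from the other 3 by Dixon's criterion, where chance flags about 1 in 20. SIN (40 mg/kg) rat 1 stood high in 4 genes, with Cpt2 at 89.9 CPM (others 54.7 to 54.9), Hadha at 507 CPM (459 to 464), Hadhb at 392 CPM (348 to 355) and Crat at 260 CPM (210 to 216). SIN (20 mg/kg) rat 1 stood apart in 3 genes, with Cpt1a at 255 CPM (others 352 to 369), Angptl4 at 3.01 CPM (6.33 to 6.96) and Acadsb at 159 CPM (80.7 to 86.5). Acadsb, the dehydrogenase of short branched chains, was flagged in 3 of the 4 groups, since normal rat 3 had 153 CPM (55.8 to 65.5) and SIN (40 mg/kg) rat 4 had 87.6 CPM (56.1 to 58.2). The remaining flags were Acadm in SIN (20 mg/kg) rat 2 at 461 CPM (540 to 551), Etfb in SIN (20 mg/kg) rat 3 at 280 CPM (248 to 251), Eci1 in DN rat 4 at 349 CPM (244 to 255) and Acsl1 in normal rat 2 at 236 CPM (286 to 295). None was in DN rat 3, the rat with the high fibroblast and smooth muscle markers.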

How the results depend on the processing

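The median log2 fold change of the genes stayed within the spread between rats in all 6 comparisons under each alternative, and under leaving out each rat in turn it ran from −0.26 to −0.16 in the DN over the normal group. Counts of called genes were less stable. In the DN over the normal group the count of 12 ran from 4 to 12 with a rat left out, was 4 with a replicate block and 2 with a 2-fold limit. The share of all genes called was then 4.81% to 23.6%, 8.4% and 3.8%, against 19.5% in the main test. DESeq2, the exact test, both other scalings, a minimum of 10 counts in every rat and a single fit of all 16 rats gave the same 12 genes, and no filter gave 10 of them. Of all genes, 26.6% were called by DESeq2, 21.5% by the exact test and 19.4% and 19.1% with RLE and upper quartile scaling. The share was 22.2% with the minimum of 10 counts, 23.5% in the single fit and 11.6% with no filter. In the SIN (20 mg/kg) over the normal group the count of 7 was 18 by DESeq2, 2 with a 2-fold limit and from 3 to 7 with a rat left out. Of all genes 10.9% were called by DESeq2 and 3.42% to 7.66% with a rat left out, against 6.36% in the main test. In the SIN (40 mg/kg) over the normal group the count of 9 was 17 by DESeq2, 15 by the exact test, 16 with a replicate block, 2 with a 2-fold limit and from 6 to 10 with a rat left out. Of all genes DESeq2 called 11.2%, the exact test 9.61% and the block 7.98%, against 5.97% in the main test. With a rat left out that share was 2.89% to 6.37%. For the SIN groups the share of all genes at the 2-fold limit is not reported here. In the SIN (40 mg/kg) over the DN group the count of 0 was 2 by DESeq2 and 1 by the exact test, against 2.81% and 1.04% of all genes. The replicate numbers did not pair the rats. Deviations of same-numbered rats from their group means correlated from −0.24 to 0.24 over 24 pairs, 2 of them above 0.1, and a rat correlated best with its own number in 5 of 48 cases. Under the block the count fell from 12 to 4 in the DN over the normal group, while the share of all genes fell from 19.5% to 8.4%. The count rose from 9 to 16 in the SIN (40 mg/kg) over the normal group, while the share rose from 5.97% to 7.98%. Where a rat was left out, fewer samples remained. Otherwise the cause was not tested.

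Of the single genes named, 759 values under an alternative kept their direction and their side of the threshold, 108 kept their direction and lost the threshold, 10 gained it and 2 reversed. Without DN rat 1 the log2 fold changes of SIN (20 mg/kg) over DN became 0.055 for Cpt1b and 0.15 for Acsl6, and over all rats left out in turn they ran from −0.63 to 0.055 and from −1.35 to 0.15. CPM with RLE factors differed by at most 1.19% for any gene. One promoter of 38 (2.63%) held the direct repeat with 1 mismatch, against 0% with none. With 4 rats a group, SEs of log2 fold changes were 0.08 to 0.91, and the smallest log2 fold change called in the DN over the normal group was 0.39, so smaller differences were mostly not detectable. Acsl6 and Abcd2, at under 1 CPM in most rats, could be read only as near the detection limit.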
